A study of Mus musculus with 12 samples.

Results

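The immediate-early and heat shock genes described here are 38 genes chosen by name out of the 22294 genes of the expression table: 31 immediate-early genes and 7 heat shock genes. The immediate-early genes were 7 subunits of the transcription factor AP-1, 3 EGR factors, Atf3 and Maff, 3 nuclear receptors of the NR4A family, 3 KLF factors, 6 genes that restrain signalling or growth, and 7 others. Messenger RNA was sequenced from mouse endometrial cells that bound magnetic beads against F4/80, a surface protein of macrophages. The 12 libraries formed 4 groups of 3. Mice of the Sham group had undergone sham surgery. Those of the IUA group were modelled for intrauterine adhesion, a scarring that closes the uterine cavity, and their libraries are named Matrigel, with no statement of how that gel was used. The remaining groups, called control MSC and primed MSC here, were IUA mice that received mesenchymal stromal cells from human umbilical cord, either untreated cells or cells primed with inflammatory cytokines. All groups shared the same isolation: minced tissue was digested with trypsin and then for longer with collagenase at body temperature under shaking, red cells were lysed, and the bead-bound cells were lysed in Trizol. The labels give neither strain, sex, age, time after surgery nor the number of mice behind a library, so a p-value here reflects only how far these libraries scatter, which may be technical.

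Immediate-early genes are switched on within minutes of a stimulus without new protein synthesis, because the factors that act on their promoters, such as SRF with its ternary complex partners and CREB, are already present and need only be phosphorylated by MAP kinases or other kinases. Their products include the FOS and JUN proteins, which pair to form AP-1, and EGR proteins, and among them are phosphatases and RNA-binding proteins that end the response. Heat shock genes follow another route: HSF1, held inactive by chaperones, is freed when unfolded proteins accumulate and binds repeated GAA units in their promoters. Macrophages use both sets during activation, and warm enzymatic digestion of tissue is a known stimulus of both, so levels in dissociated cells hold a part made in the animal and a part made during isolation. These libraries cannot tell those parts apart.

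The values are FPKM, a fragment count corrected by the authors for transcript length and for the size of each library, so levels of different genes can be set side by side per length. Changes were tested with limma on log2(FPKM + 1), a scale that understates changes of low genes, and genes with an adjusted p under 0.05 (Benjamini-Hochberg) were called higher or lower. The adjustment ran over the 11604 genes that reached FPKM 1 in 3 or more libraries, and all 38 members did. Low FPKM values fell close to whole fragments at estimated depths of 15080000 to 23580000 fragments per library, and by that estimate the scarcest member, Egr3, rested on 46 to 236 fragments and Hspa8 on 124846 to 225087. Macrophage markers were present in every library, with a summed level of 12 markers of 11356 to 13951 FPKM in Sham and 30522 to 35629.8 FPKM in the other groups. Adgre1, which encodes F4/80, averaged 223 ± 29.0 FPKM in Sham and 434 ± 38.1 in IUA, and the control and primed MSC groups averaged 939.9 ± 101 and 1175 ± 199.8 (SD, n = 3 each). Markers of uterine epithelium were present too, with a summed level of 8002 to 13968 FPKM in Sham against 1522 to 5367 in the other groups. In such bulk samples fewer cells of a type and less RNA per cell cannot be told apart.

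Upstream sequences of AP-1 and heat shock genes are described before any level is compared. Of the 38 members, 30 were found in a RefSeq table of promoters (GRCm38.p6, from 250 bases before to 50 after a start site), and Egr1, Egr3, Fosl1, Arc, Myc, Ier2, Hspa8 and Hsp90aa1 were not. The promoters of 2 AP-1 genes and 2 heat shock genes follow, from base -200 to base -1 before the start site, 5′ to 3′ on the coding strand. Capitals mark a TATA box (TATAAA) in Fos and a pair of facing heat shock units (GAANNTTC or TTCNNGAA) in the others.
Fos, chr12:85473690-85473889, plus strand: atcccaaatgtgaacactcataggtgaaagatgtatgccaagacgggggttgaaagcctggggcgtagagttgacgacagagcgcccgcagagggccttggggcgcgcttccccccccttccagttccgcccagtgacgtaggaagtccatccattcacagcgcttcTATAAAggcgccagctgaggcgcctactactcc
Jun, chr4:95052223-95052422, minus strand: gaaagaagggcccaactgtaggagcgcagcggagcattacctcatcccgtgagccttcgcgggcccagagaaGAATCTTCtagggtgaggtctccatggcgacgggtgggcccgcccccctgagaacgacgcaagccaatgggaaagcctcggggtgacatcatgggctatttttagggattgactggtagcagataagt
Hspa1a, chr17:34972157-34972356, minus strand: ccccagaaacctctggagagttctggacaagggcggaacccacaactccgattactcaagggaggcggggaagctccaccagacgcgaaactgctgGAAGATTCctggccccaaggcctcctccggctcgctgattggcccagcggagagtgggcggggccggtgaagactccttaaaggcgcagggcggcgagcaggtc
Hspb1, chr5:135887719-135887918, plus strand: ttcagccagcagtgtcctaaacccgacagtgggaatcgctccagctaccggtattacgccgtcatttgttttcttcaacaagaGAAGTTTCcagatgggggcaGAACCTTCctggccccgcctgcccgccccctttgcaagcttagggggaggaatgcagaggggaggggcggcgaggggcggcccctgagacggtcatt

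Matches were counted on both strands over the whole 300 bases, and a gene with several promoters in the table, such as Egr2, was counted once if any of them matched. Shares of all 27025 genes of the table are counted the same way. A facing heat shock pair stood in the promoters of Hspa1a, Hspa1b, Hsph1 and Hspb1, 4 of the 5 heat shock genes found, and not in that of Dnajb1. It stood in 3 of 7 AP-1 and EGR genes (Fosl2, Jun and Egr2) and in 0 of the 18 other immediate-early genes, beside 16.97% of all genes (15.06% of all 32851 promoters). TATAAA was found in Fos at base -33, in Junb just after the start site, in Nr4a2 and Gadd45b, and in 15.67% of all genes. An EGR site (GCGGGGGCG or GCGTGGGCG) was found in 2 of 7 AP-1 and EGR genes and 6 of 18 other immediate-early genes, among them Nr4a1, Klf2, Klf4 and Zfp36, and in 3.933% of all genes. The cyclic AMP element TGACGTCA was found in Maff, Dusp1 and Btg2 and in 2.031% of all genes. The CArG box, which SRF binds, was found in Egr2, Dusp5 and Zfp36 and in 1.806% of all genes, and the AP-1 site TGACTCA in Csrnp1 alone among the members and in 5.946% of all genes. These are matches of letters and not measured binding. Sites outside the 300 bases were not searched, so a gene without a match can still hold one further away.

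Over the 4 groups, 29 of the 38 members differed by limma's moderated F test, a share to be read beside the 67.0% of all tested genes that did. All 7 AP-1 genes and 2 of 3 EGR genes were among them, and 3 of 7 heat shock genes (Dnajb1, Hspb1 and Hsp90aa1). The Sham group had the highest mean for 24 of 38 members, for 7 of 10 AP-1 and EGR genes and for 6 of 7 heat shock genes. The plot of levels relative to Sham shows this as a block of low values to the right of the Sham libraries, broken in a number of rows. Primed MSC had the highest mean for 9 members, among them Fos, Junb, Klf2, Dusp1, Dusp5, Zfp36, Ier5 and Rhob. IUA had it for 4 and control MSC for 1. How often Sham ranked highest among all tested genes was not counted. Their median log2 change against Sham was also negative, at -0.35 for IUA, -0.30 for control MSC and -0.33 for primed MSC. The ranking and the block therefore do not by themselves set the members apart from other genes.

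**Figure D1:**
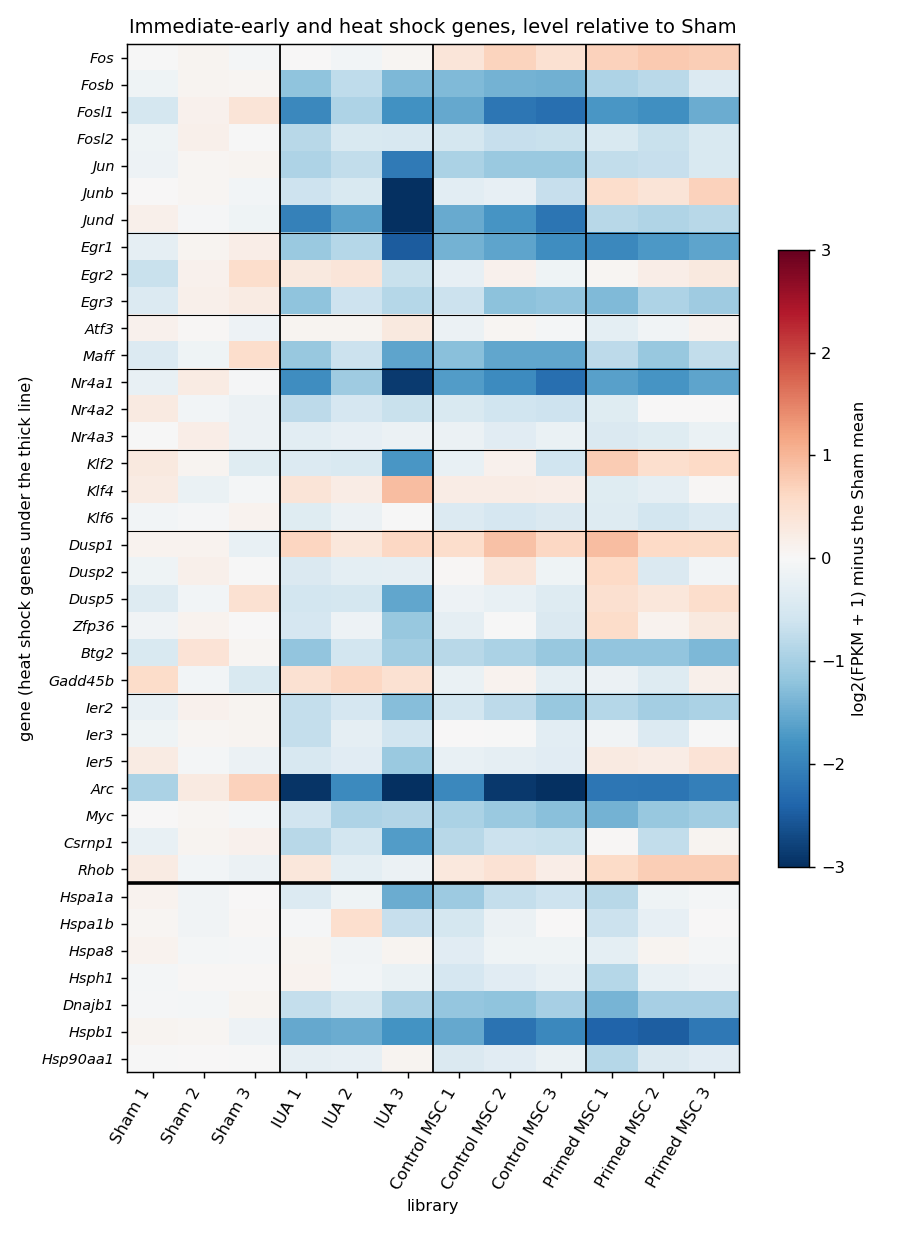
Level of each of the 38 members (rows) in each of the 12 libraries (columns) as log2(FPKM + 1) minus the mean of the 3 Sham libraries, with red for higher and blue for lower; the colour scale ends at 3 in each direction. Most AP-1, EGR and NR4A rows are blue in the IUA, control MSC and primed MSC libraries. Fos is red in both MSC groups and Junb in primed MSC, and the row of Hspb1 is the most evenly blue among the heat shock genes.

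IUA against Sham addresses the effect of the adhesion model on the sorted cells. Of the 38 members, 23 were lower in IUA and 2 were higher (Klf4 and Dusp1), against 45.0% lower and 11.1% higher among all tested genes. The median log2 change of the members was -0.67, and that of all tested genes -0.35. That background shift depends on scaling: with median-ratio scaling the median over all tested genes was -0.0028, so as deposited a log2 change of -0.35 is that of the median gene.

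Among the AP-1 genes, 6 of 7 were lower in IUA and Fos was not called. Jund, a constitutive JUN protein, measured 194, 169 and 160.1 FPKM in the Sham libraries and 42.1, 56.2 and 11.0 in the IUA libraries. The groups did not overlap, and the log2 change was -2.50 ± 0.42 (SE, adjusted p = 0.000556). Fosl1, which encodes FRA-1, measured 88.0, 138 and 166 FPKM in Sham and 32.2, 65.8 and 34.9 in IUA (log2 change -1.56 ± 0.29, adjusted p = 0.000887). Jun, the partner of FOS in the classical AP-1 dimer, measured 77.1, 89.7 and 90.1 FPKM in Sham and 44.1, 50.5 and 18.9 in IUA (log2 change -1.27 ± 0.27, adjusted p = 0.00199). Both genes were lower in every IUA library than in any Sham library. Fosb measured 16.0, 18.4 and 18.1 FPKM in Sham and 6.95, 9.82 and 6.29 in IUA (log2 change -1.11 ± 0.17, adjusted p = 0.000308). Fosl2, which encodes FRA-2, had the smallest of these falls, at a log2 change of -0.59 ± 0.13 from a Sham mean of 27.2 FPKM. Fos itself, the founding member of its family, measured 260.3, 281 and 252 FPKM in Sham and 265, 248 and 274 in IUA, so the groups overlapped and the log2 change was -0.01 ± 0.10. Its direction flipped with scaling: the log2 change was 0.40, and called, under both median-ratio scaling and a correction for transcript GC content.

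The size of the fall of Junb depended on 1 library. It measured 330.4, 343 and 312 FPKM in Sham and 214, 238 and 39.6 in IUA, for a log2 change of -1.37 ± 0.49 (adjusted p = 0.0322). IUA replicate 3 was far below the other libraries. Without it the log2 change of Junb was -0.54 and stayed called (adjusted p = 0.00818). With any 1 Sham library left out Junb was no longer called, at -1.33 to -1.40 with adjusted p of 0.062 to 0.077. Without IUA replicate 3 the log2 change of Jun was -0.84 and that of Egr1 was -0.98, and both stayed called.

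Of the EGR genes, zinc finger factors induced by MAP kinase signalling, Egr1 and Egr3 were lower in IUA. Egr1 measured 136, 175 and 189 FPKM in Sham and 75.4, 91.2 and 28.6 in IUA (log2 change -1.49 ± 0.33, adjusted p = 0.00244). Egr3 was scarce, at 3.05 ± 0.91 FPKM in Sham and 1.17 ± 0.44 in IUA (SD, n = 3; log2 change -0.89 ± 0.23). Egr2, which in macrophages is linked to alternative activation, measured 13.0, 23.3 and 31.1 FPKM in Sham and 26.4, 27.7 and 13.0 in IUA. The groups overlapped and the log2 change was 0.00048 ± 0.30, with an adjusted p of 0.845 over the 4 groups.

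The ATF, MAF, NR4A and KLF factors did not move as 1 set. Maff, a small MAF protein, was lower in IUA, at 9.95 ± 3.56 FPKM against 22.8 ± 8.30 in Sham (log2 change -1.12 ± 0.26). Nr4a1, an orphan nuclear receptor that limits inflammatory transcription in macrophages, measured 502, 701 and 578 FPKM in Sham and 162, 278 and 79.9 in IUA. It did not overlap between the groups and had a log2 change of -1.93 ± 0.33 (adjusted p = 0.000601). Nr4a2 was lower as well (log2 change -0.65 ± 0.14), and Nr4a3, at 4.89 ± 0.77 and 3.95 ± 0.27 FPKM, was not called. Klf2, a restraint on myeloid activation, was lower in IUA at -0.87 ± 0.31, and Klf4 was higher at 0.52 ± 0.18. Both calls were lost without IUA replicate 3, at -0.43 for Klf2 and 0.31 for Klf4, and so was that of Klf2 without Sham replicate 1 or 2 and that of Klf4 without Sham replicate 2 or 3. Atf3, a stress-induced repressor, averaged 182 ± 15.8 FPKM in IUA and 165 ± 17.2 in Sham and was not called (log2 change 0.15 ± 0.12), but passed under median-ratio scaling at 0.55. Klf6 had the highest level of these factors, 846 ± 103 FPKM in IUA and 958 ± 70.8 in Sham, and was not called, though it was called lower at -0.27 without IUA replicate 3.

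Among the genes that restrain signalling, the phosphatase gene Dusp1, which switches off p38 and JNK, was higher in IUA while Dusp5, Zfp36 and Btg2 were lower. Dusp1 measured 1012, 1022 and 813 FPKM in Sham and 1466, 1192 and 1442 in IUA, without overlap (log2 change 0.53 ± 0.14, adjusted p = 0.00769). It had the highest mean of the 31 immediate-early genes in IUA and both MSC groups, and came after Klf6 in Sham. Btg2, an antiproliferative gene, was lower at -0.93 ± 0.20. Dusp5, a nuclear phosphatase for ERK, measured 166, 205 and 295 FPKM in Sham and 148, 150.3 and 72.4 in IUA (log2 change -0.88 ± 0.26), with -0.53 without IUA replicate 3 and a lost call at -0.65 without Sham replicate 3. Zfp36, whose product tristetraprolin destroys cytokine mRNAs, measured 188, 218 and 206 FPKM in Sham and 144, 184 and 92.0 in IUA (log2 change -0.59 ± 0.21). Its call was lost without IUA replicate 3, at -0.32, and without Sham replicate 2 or 3. Gadd45b and Dusp2 were not called, at log2 changes of 0.51 ± 0.22 and -0.33 ± 0.22, and Gadd45b passed under both median-ratio scaling and GC correction at 0.91 and 1.03 and without Sham replicate 1 at 0.78.

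Of the 7 remaining immediate-early genes 6 were lower in IUA and Rhob, a small GTPase, was not called at -0.04 ± 0.16. Arc, best known for its role at synapses, had the largest change of the 38 members. It measured 39.5, 93.8 and 126 FPKM in Sham and 9.18, 19.9 and 2.74 in IUA, a log2 change of -3.09 ± 0.56 (adjusted p = 0.000822). Myc, a driver of growth, measured 104, 106 and 98.0 FPKM in Sham and 69.0, 53.4 and 55.2 in IUA (log2 change -0.79 ± 0.13, adjusted p = 0.000444). Csrnp1, Ier2, Ier5 and Ier3 had log2 changes of -1.02 ± 0.27, -0.84 ± 0.20, -0.64 ± 0.18 and -0.52 ± 0.14. Ier5 stayed called at -0.40 without IUA replicate 3, but was not called at -0.24 under median-ratio scaling, -0.34 under quantile scaling and -0.22 under GC correction.

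**Figure D2:**
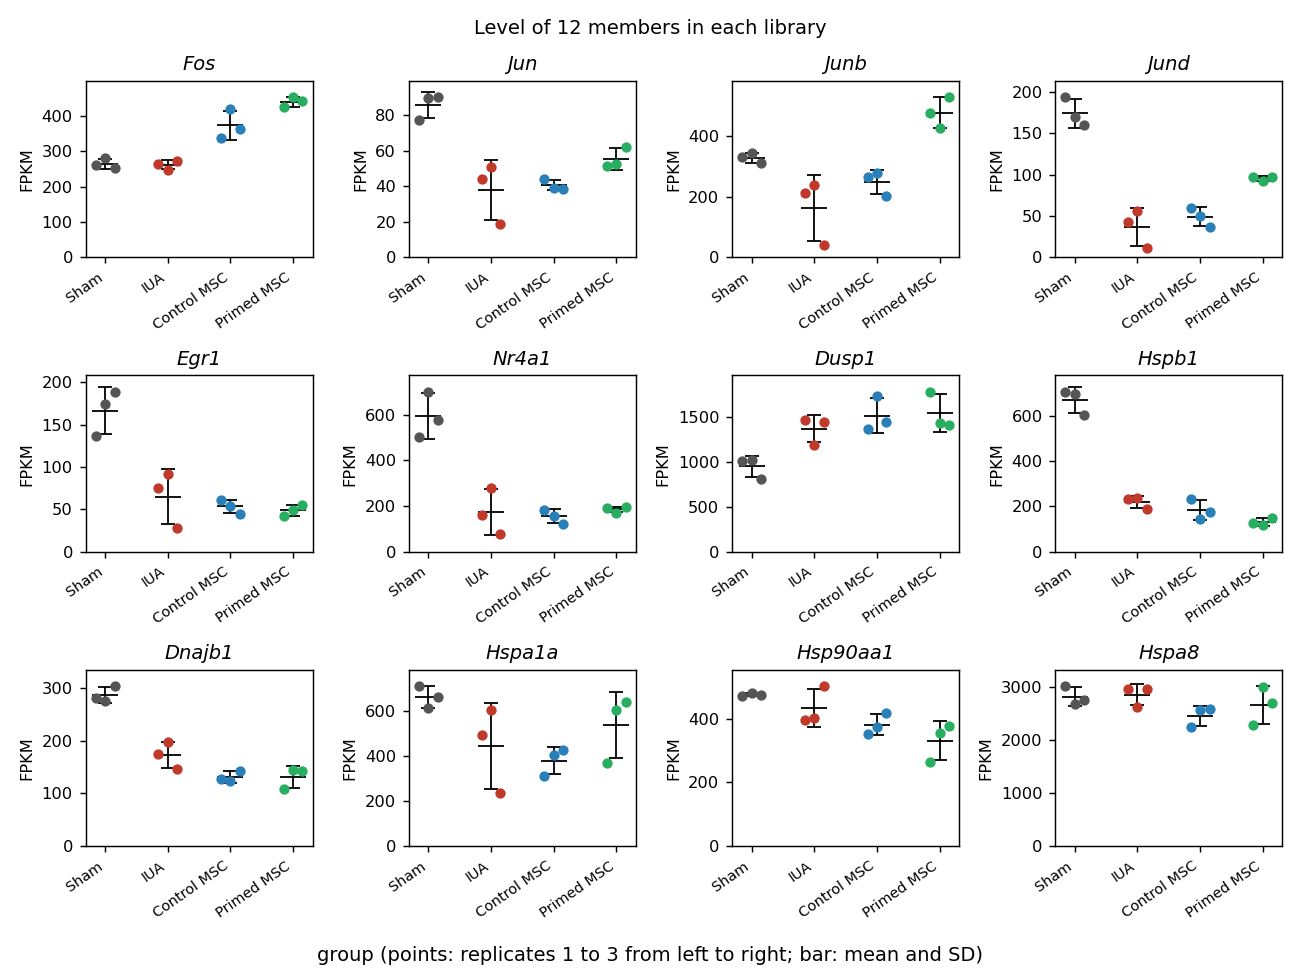
FPKM of 12 members in each library, grouped as Sham, IUA, control MSC and primed MSC; points are replicates 1 to 3 from left to right, and bars give the mean and SD of 3 libraries on axes that start at 0. Jund, Egr1, Nr4a1 and Hspb1 stand highest in the 3 Sham libraries, Fos is at 248 to 281 FPKM in the Sham and IUA libraries and at 339 or more in every MSC library, and the third IUA point is the lowest of its group for Jun, Junb, Jund, Egr1, Nr4a1, Hspb1, Dnajb1 and Hspa1a.

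Of the 7 heat shock genes 2 were lower in IUA than in Sham, and 3 at an unadjusted p under 0.05. Hspb1, the small chaperone HSP25, measured 706, 695 and 603 FPKM in Sham and 230.4, 237 and 190.0 in IUA. Its log2 change of -1.61 ± 0.16 (adjusted p = 3.34e-05) had the smallest p of the 38 members. Dnajb1, the HSP40 partner of inducible HSP70, measured 281, 275 and 304 FPKM in Sham and 175, 197 and 147 in IUA (log2 change -0.74 ± 0.13, adjusted p = 0.00084). Neither gene overlapped between the groups, but the change of Dnajb1 was -0.33 under median-ratio scaling and -0.31 under GC correction and was then not called.

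The classical inducible chaperone did not pass the test. Hspa1a, the main inducible HSP70 gene, measured 710.0, 613 and 661 FPKM in Sham and 493, 605 and 235 in IUA. The IUA libraries were all below the Sham libraries, yet the log2 change of -0.68 ± 0.30 had an adjusted p of 0.0727. It was -0.27 without IUA replicate 3, and was called at -0.95 without IUA replicate 2. Hspa1b, its near copy, averaged 15.4 ± 0.95 FPKM in Sham and 15.4 ± 6.49 in IUA (log2 change -0.08 ± 0.26). How fragments were split between these genes is uncertain: 49.93% of the 100-base windows of the Hspa1b transcript also occur in Hspa1a, their promoters differ at 4 of 300 bases, and the deposited Hspa1a value was 25.8 to 47.2 times that of Hspa1b. With both values added, the log2 change was -0.66 ± 0.30 (adjusted p = 0.0779). Hspa8, the constitutive HSC70, had the highest level of the 38 members in every group, at 2819 ± 179 FPKM in Sham and 2855 ± 199 in IUA (log2 change 0.02 ± 0.12). Hsp90aa1, the inducible HSP90, measured 472, 482 and 474 FPKM in Sham and 395, 403 and 502 in IUA, overlapping groups with a log2 change of -0.14 ± 0.14. Hsph1, an HSP110 that reloads HSP70, was not called either, at 74.5 ± 3.03 and 71.7 ± 7.46 FPKM (log2 change -0.06 ± 0.16).

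The AP-1 and EGR genes and the heat shock genes thus stood at different distances from Sham. In IUA, 8 of 10 AP-1 and EGR genes and 2 of 7 heat shock genes were lower, beside 45.0% of all tested genes, with median log2 changes of -1.19 and -0.14 beside -0.35 over all tested genes. The median of the heat shock genes was above that of all genes under median-ratio scaling, at 0.26, whereas the AP-1 and EGR median stayed negative at -0.80. As a mean of log2(FPKM + 1) per library, the AP-1 and EGR genes ran from 5.80 to 6.14 in Sham and from 4.35 to 5.40 in IUA, and the heat shock genes from 8.19 to 8.25 in Sham and from 7.51 to 7.93 in IUA. Both lists were lower in each IUA library than in any Sham library on this scale. These means hold the common shift in level, and no mean of all tested genes was taken beside them. Median-ratio scaling would divide the Sham libraries by 1.23 to 1.27 and the IUA libraries by 0.93 to 0.98. The heat shock group mean was 8.22 in Sham and 7.75 in IUA, whereas the heat shock median of -0.14 is the change of the middle gene, Hsp90aa1. Among the MSC libraries the lists parted. AP-1 and EGR means were 4.91 to 5.21 in control MSC and 5.35 to 5.56 in primed MSC. Heat shock means were 7.43 to 7.64 and 7.18 to 7.69. The difference lay in the AP-1 genes, with group means of 5.64 in control MSC and 6.17 in primed MSC. The EGR genes had 3.71 and 3.73. The lists were chosen with results of these data known, so these are descriptions without a test.

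**Figure D3:**
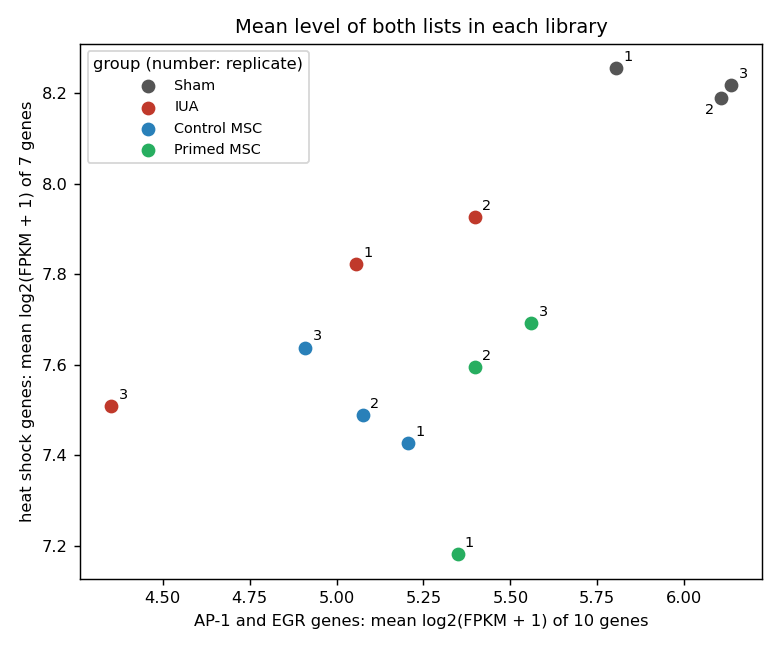
Mean log2(FPKM + 1) of the 10 AP-1 and EGR genes (horizontal) and of the 7 heat shock genes (vertical) in each of the 12 libraries, coloured by group and numbered by replicate. The Sham libraries lie at the upper right, IUA replicate 3 is lowest on the horizontal axis at 4.35, and primed MSC replicate 1 is lowest on the vertical axis at 7.18.

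Several measurements moved with the difference between Sham and IUA. All 13 tested markers of epithelium and all 10 of endothelium were lower in IUA, with median log2 changes of -1.79 and -1.33, and so were 4 of 9 of stroma, 5 of 8 of smooth muscle, 3 of 6 of mast cells and 3 of 3 of red cells, beside 45.0% of all tested genes, to which the shares of stroma and mast cells are close. Of 12 macrophage markers 10 were higher, as were 5 of 7 of neutrophils and 2 of 4 of B and plasma cells, beside 11.1% of all tested genes. Of 5 dendritic cell markers 2 were higher and 3 lower, and 1 of 4 T and NK cell markers was lower. Summed epithelial levels did not overlap between the 3 Sham libraries and the other 9, and none of those markers was at 0. With the epithelial mean as a covariate, 2 of the 25 calls in IUA against Sham were kept. That covariate overlaps in part with the grouping, at a mean log2(FPKM + 1) of 6.68 to 7.45 in Sham and 4.77 to 6.09 in the other libraries. How much of the members' RNA came from epithelium was not tested.

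GC content moved with it too. The members' transcripts had a median GC content of 55.1%, against 49.4% for all tested genes, with 67.1% for Jund and 62.6% for Junb. Across the 38 members, the deviation of IUA replicate 3 from the mean over libraries fell with GC content (Spearman rho = -0.65; -0.49 across 11601 genes, which share the library). IUA replicates 1 and 2 gave -0.23 and -0.0045 across the members and -0.15 and -0.18 across all genes. The Sham libraries gave 0.30 to 0.42 across the members and 0.063 to 0.087 across all genes. In the primed MSC libraries the values were -0.080 to 0.23 and 0.15 to 0.22. Control MSC replicate 3 gave -0.51 across the members and -0.092 across all genes. IUA replicate 3 had the lowest of 12 values for 16 of 38 members and for 22.17% of tested genes. Corrected for GC, 16 members were called in IUA against Sham, 10 lower and 6 higher, and 12 of the 25 calls were kept. The correction also takes out each library's common shift in level, so these counts do not reflect GC content alone. Of the 23 lower calls 9 held under every other setting tried except the epithelial covariate: Fosb, Fosl1, Jun, Jund, Egr1, Nr4a1, Btg2, Arc and Hspb1, save that Btg2 was not called at -0.53 under GC correction without IUA replicate 3. Hspb1 held with the covariate too. The lower calls of Fosl2, Junb, Nr4a2, Klf2, Dusp5, Zfp36, Ier2, Ier3, Ier5, Csrnp1 and Dnajb1 were lost under both median-ratio scaling and GC correction. Neither of the 2 higher calls held throughout: Dusp1 was not called under quantile scaling, at 0.28.

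**Figure D4:**
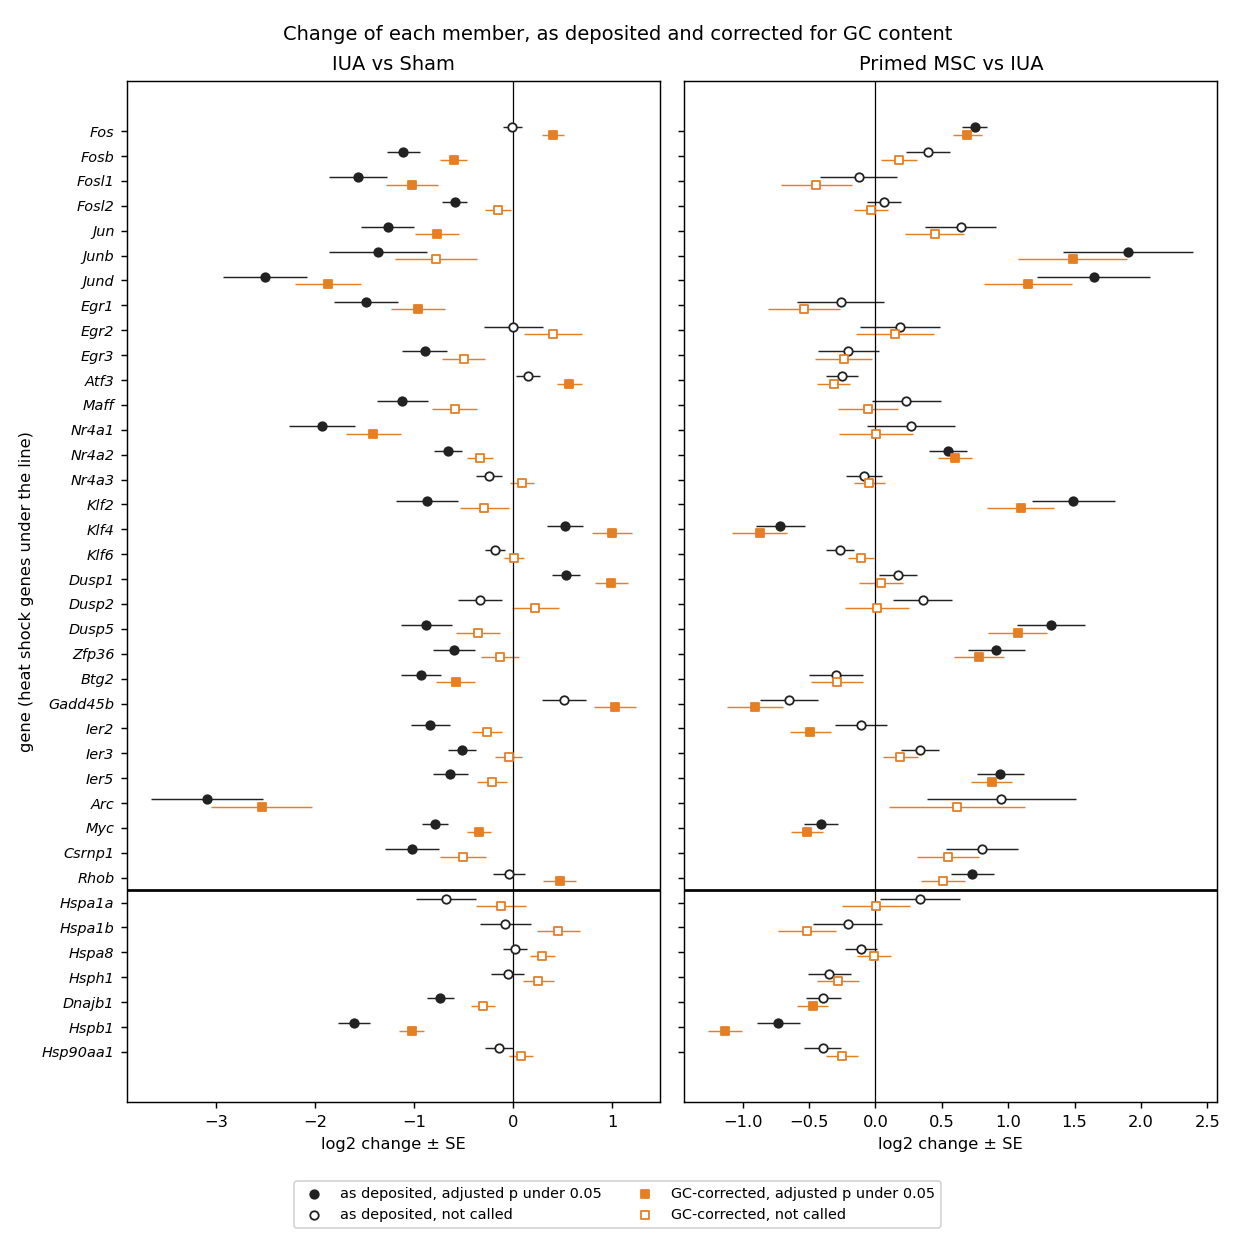
Log2 change ± SE of each of the 38 members for IUA against Sham (left) and primed MSC against IUA (right), as deposited (black circles) and after correction for transcript GC content (orange squares); filled symbols have an adjusted p under 0.05. On the left the correction, which also removes the common shift in level, moves every member to the right. Fos goes from -0.01 to 0.40 and Jund from -2.50 to -1.87. On the right Fos, Junb, Jund, Klf2, Dusp5 and Ier5 are filled in both.

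Control MSC against IUA addresses what untreated stromal cells did in the adhesion model. Among the 38 members 1 was higher and 0 were lower, beside 0.724% higher and 0.129% lower among all tested genes; at an unadjusted p under 0.05 the counts were 3 and 4. The gene was Fos, which measured 339, 419 and 364 FPKM in control MSC, above each of the IUA values of 265, 248 and 274. Its log2 change was 0.51 ± 0.10 (adjusted p = 0.042). The call was fragile: it was lost in 9 of 12 fits that left out 1 library, with log2 changes of 0.42 to 0.54, and under 8 of the other settings. Junb averaged 248 ± 39.0 FPKM against 164 ± 108 in IUA, a log2 change of 0.95 ± 0.49 that did not pass (adjusted p = 0.321) and was 0.13 without IUA replicate 3. No heat shock gene was called, and 1 was lower at an unadjusted p under 0.05, Dnajb1, which measured 128, 123 and 143 FPKM (log2 change -0.39 ± 0.13, adjusted p = 0.166).

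Primed MSC against IUA asks the same of cytokine-primed cells, and here 9 of the 38 members were higher and 3 lower, against 12.2% and 6.97% of all tested genes. The higher genes were Fos, Junb and Jund of AP-1, Nr4a2, Klf2, the restraints Dusp5 and Zfp36, Ier5 and Rhob. The lower genes were Klf4, Myc and Hspb1. The median log2 change was 0.18 over the members and -0.03 over all tested genes. The EGR genes had adjusted p of 0.550 or more.

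Fos measured 425, 454 and 444 FPKM in primed MSC, the highest of the 4 groups, and had the smallest p of the members against IUA (log2 change 0.75 ± 0.10, adjusted p = 0.000857). Each primed library lay above all IUA and control MSC libraries. Junb measured 476, 429 and 530.0 FPKM, with a log2 change of 1.90 ± 0.49 (adjusted p = 0.0204), and Jund 97.4, 92.4 and 97.0 FPKM, with 1.64 ± 0.42 (adjusted p = 0.0204). Both were above every IUA library. Without IUA replicate 3 their log2 changes were 1.07 and 0.96 and both stayed called. Both calls were lost without primed MSC replicate 1 or 3, and that of Jund also without replicate 2, at adjusted p of 0.053 to 0.062. Jun measured 51.2, 52.2 and 62.3 FPKM, above each IUA value but with an adjusted p of 0.112 (log2 change 0.64 ± 0.27). Its log2 change was 0.22 without IUA replicate 3, and 0.90 and called without IUA replicate 2. Egr1 measured 42.4, 49.1 and 54.6 FPKM, overlapping IUA at a log2 change of -0.26 ± 0.33. Without IUA replicate 3 it was called lower, at -0.76.

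Klf2 measured 38.6, 32.4 and 34.9 FPKM in primed MSC against 16.8, 16.0 and 6.04 in IUA (log2 change 1.49 ± 0.31, adjusted p = 0.008). Its family member Klf4, which is tied to alternative activation of macrophages, went the other way, at 10.4, 11.1 and 14.1 FPKM against 18.3, 16.2 and 27.1 (log2 change -0.72 ± 0.18, adjusted p = 0.0196). Neither overlapped. The call for Klf4 was lost without IUA replicate 3, at -0.51, and without primed MSC replicate 1 or 2, at -0.63 and -0.68. Dusp5 measured 302, 272 and 312 FPKM against 148, 150.3 and 72.4 in IUA (log2 change 1.32 ± 0.26, adjusted p = 0.00572). Zfp36 measured 299, 219 and 250.2 FPKM against 144, 184 and 92.0 (log2 change 0.91 ± 0.21), and its call was lost at 0.80 without primed MSC replicate 1. Each was above IUA in all 3 libraries.

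Ier5, a regulator of phosphatase PP2A that HSF1 also induces, measured 39.4, 38.2 and 43.8 FPKM in primed MSC and 23.2, 25.5 and 14.6 in IUA (log2 change 0.94 ± 0.18, adjusted p = 0.00504). Rhob measured 19.4, 21.8 and 21.8 FPKM against 16.2, 10.1 and 11.2 (log2 change 0.73 ± 0.16), and was not called after GC correction at 0.51. Nr4a2 measured 24.3, 31.6 and 31.6 FPKM against 17.8, 21.7 and 19.2 (log2 change 0.55 ± 0.14), and its call was lost without IUA replicate 3 and without primed MSC replicate 2 or 3, at 0.49 to 0.54. All of these were higher in each primed library than in any IUA library. Myc measured 37.9, 46.1 and 49.0 FPKM against 69.0, 53.4 and 55.2, a log2 change of -0.41 ± 0.13 close to the threshold (adjusted p = 0.0446) that was lost in 10 of 12 fits without 1 library, at -0.29 to -0.48.

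Among the heat shock genes Hspb1 was lower in primed MSC, at 125, 120.0 and 151 FPKM against 230.4, 237 and 190.0 in IUA, without overlap (log2 change -0.73 ± 0.16, adjusted p = 0.0108). Dnajb1 and Hsp90aa1 were below IUA in every primed library but did not pass, with log2 changes of -0.39 ± 0.13 (adjusted p = 0.0603) and -0.39 ± 0.14 (adjusted p = 0.0646). Dnajb1 was called at -0.50 without IUA replicate 3. Hsp90aa1 measured 263, 354 and 378 FPKM in primed MSC. Hspa1a measured 368, 604 and 639 FPKM, overlapping IUA, with a log2 change of 0.34 ± 0.30 that turned to -0.067 without IUA replicate 3. The medians of the lists were 0.29 for AP-1 and EGR genes, 3 of 10 of them higher, and -0.35 for heat shock genes, 1 of 7 lower. Taken apart, the AP-1 genes had a median of 0.64 and the EGR genes one of -0.20. The AP-1 and EGR median was 0.47 without IUA replicate 2, 0.17 without IUA replicate 3 and 0.19 without primed MSC replicate 3. Without primed MSC replicate 1 the median of the heat shock genes was -0.13, and 7 members were called in place of 12. Of the 12 calls 5 held under every other setting tried: the higher calls of Fos, Klf2, Dusp5 and Ier5 and the lower call of Hspb1. Beside these changes, 5 of 12 macrophage markers were higher, and 2 of 10 endothelial and 2 of 9 stromal markers were lower. Of 7 neutrophil markers 1 was higher and 2 lower, and 1 of 4 of T and NK cells and 1 of 5 of dendritic cells were lower. These counts stand beside 12.2% higher and 6.97% lower among all tested genes. The 13 epithelial markers had adjusted p of 0.186 or more. The part of these cell types in the members' changes was not tested.

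Primed against control MSC addresses the effect of priming. None of the 38 members was called, beside 0.0776% higher and 0.0345% lower among all tested genes, which amount to 9 and 4 genes. At an unadjusted p under 0.05, 10 members were higher and 2 lower. The smallest adjusted p was 0.144, for Fosb, which measured 8.69, 9.62 and 12.8 FPKM in primed and 6.40, 5.94 and 5.85 in control MSC (log2 change 0.67 ± 0.17). Of the heat shock genes 1 was lower at an unadjusted p under 0.05, Hspb1, with a log2 change of -0.45 ± 0.16 (adjusted p = 0.285). The median log2 change was 0.28 for AP-1 and EGR genes and -0.05 for heat shock genes. Taken apart, the AP-1 genes had a median of 0.43 and the EGR genes one of -0.09. Calls appeared under other settings: Junb at 0.95, Jund at 0.97 and Ier5 at 0.59 were higher without IUA replicate 3, a library that enters this comparison through the shared estimate of spread alone. A fit of the compared groups alone added Dusp5 to those 3, and array weights called Fosb, Nr4a2, Dusp5 and Ier5.

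Against Sham, lower members outnumbered higher ones in both MSC groups, and these comparisons share the Sham libraries with each other and with IUA against Sham. In control MSC 2 members were higher and 19 lower (14.1% and 42.7% of all tested genes), and in primed MSC 3 were higher and 17 lower (14.5% and 45.0%). Fos was higher than Sham in both, with log2 changes of 0.50 ± 0.10 and 0.74 ± 0.10, and so was Dusp1, with 0.67 ± 0.14 and 0.70 ± 0.14. Rhob was higher in primed MSC at 0.69 ± 0.16. These 5 calls held under every other setting tried except the epithelial covariate, under which that of Fos in primed MSC alone was kept. Nr4a1 was lower at -1.94 ± 0.33 and -1.66 ± 0.33, Egr1 at -1.62 ± 0.33 and -1.75 ± 0.33, Fosl1 at -1.98 ± 0.29 and -1.69 ± 0.29, and Arc at -2.72 ± 0.56 and -2.14 ± 0.56. Jun and Jund were lower in control MSC, at -1.06 ± 0.27 and -1.83 ± 0.42, and were not called in primed MSC, at -0.62 and -0.86. Both were called there at the same values without IUA replicate 3, a library outside the comparison that enters through the shared estimate of spread. In that fit Junb, Klf2, Dusp5 and Ier5 were called higher than Sham in primed MSC, at 0.54, 0.62, 0.45 and 0.30. Junb was then called lower than Sham in control MSC, at -0.41. Under every setting tried but the epithelial covariate, 13 of the 19 lower calls held in control MSC and 10 of the 17 in primed MSC, among them those of Nr4a1, Egr1, Fosl1 and Arc in both.

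Heat shock genes were lower than Sham in both MSC groups where they were called: 3 of 7 in control MSC (Hspa1a, Dnajb1 and Hspb1) and 4 of 7 in primed MSC (Hsph1, Dnajb1, Hspb1 and Hsp90aa1), beside 42.7% and 45.0% lower among all tested genes. Hspb1 reached the largest of these changes, at -1.89 ± 0.16 and -2.34 ± 0.16. Dnajb1 was lower by much the same amount in both, at -1.12 ± 0.13 and -1.13 ± 0.13. The calls of Hspb1 and Dnajb1 held under every setting tried. Hsp90aa1 was called in primed MSC at -0.54 ± 0.14, but not at -0.11 under median-ratio scaling or -0.18 under GC correction. The call for Hspa1a in control MSC (log2 change -0.81 ± 0.30, adjusted p = 0.0362) was lost without any 1 of the Sham libraries or without control MSC replicate 1 or 2, at -0.67 to -0.86. The call for Hsph1 in primed MSC (log2 change -0.40 ± 0.16) was lost in 9 of 12 fits without 1 library, at -0.18 without primed MSC replicate 1.

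AP-1 works as a dimer, so the makeup of each family was described as shares of its summed FPKM. Fos made up 60.5% ± 6.27 of the FOS family in Sham, 79.1% ± 5.93 in IUA, and 87.0% ± 3.24 and 86.7% ± 1.44 in the control and primed MSC groups (SD, n = 3 each). Fosl1 made up 29.3% ± 6.61, 13.2% ± 5.14, 7.54% ± 2.61 and 7.60% ± 0.88 in that order. In the JUN family Junb held 55.8% ± 1.07, 65.8% ± 7.65, 73.4% ± 1.94 and 76.0% ± 1.07 in the same order, and Jund held 29.6% ± 2.28 in Sham and 14.4% to 15.4% in the other group means. The lowest Sham share of Jund was 28.1% and the highest share in any other library was 16.3%. The ratio of summed FOS to summed JUN family levels was 0.646 to 0.823 in Sham, 1.06, 0.995 and 4.81 in the IUA libraries, 1.11 to 1.47 in control MSC and 0.755 to 0.898 in primed MSC. The value of 4.81 belonged to IUA replicate 3. No test was made of these shares, neither by a linear model nor by permutation, where 3 against 3 libraries cannot give an exact p below 0.1.

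Genes around the members were read from wider lists. Of 30 other cytosolic chaperones and heat shock regulators, 18 were lower and 1 higher in IUA than in Sham (median -0.40), led by Hspb8 at -1.87 ± 0.22, the co-chaperone Bag3 at -1.56 ± 0.21 and Hspb6 at -1.31 ± 0.18. HSPB8 and BAG3 act together in chaperone-assisted autophagy. Against IUA, primed MSC had 1 higher (Ahsa1, an activator of HSP90, at 0.41 ± 0.12) and 2 lower (Hsf2 at -0.65 ± 0.14 and Hspb8 at -0.69 ± 0.22). In control MSC against IUA the smallest adjusted p of this list was 0.105, for Stub1 at 0.33 ± 0.09. Of 17 chaperones and stress regulators of the endoplasmic reticulum 9 were lower and 2 higher in IUA (median -0.29). Among the lower ones were Xbp1, the transcription factor of the unfolded protein response, at -0.89 ± 0.10, Hyou1 at -0.91 ± 0.17 and Dnajc3 at -0.46 ± 0.11. In primed MSC against IUA, Hyou1 was higher at 1.00 ± 0.17, Calr was higher at 0.47 ± 0.10 and Canx was lower at -0.46 ± 0.14.

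Of 25 kinases and factors upstream of the immediate-early genes, 14 were lower in IUA than in Sham (median -0.45). The smallest p belonged to Map2k3, a kinase for p38, at -0.93 ± 0.15, Map2k7, a kinase for JNK, at -1.10 ± 0.19, and Mrtfa, an actin-sensing partner of SRF, at -0.99 ± 0.20. In primed MSC against IUA 5 were higher and 3 lower, and Mrtfa, Rps6ka4, which phosphorylates histones at these genes, and Map2k7 were higher at 1.83 ± 0.20, 1.27 ± 0.21 and 1.00 ± 0.19. Of 35 other early-response genes 18 were lower and 7 higher in IUA (median -0.41). Nab2, which represses EGR proteins, was lower at -1.58 ± 0.21, Sik1 was lower at -1.60 ± 0.22, and the antiproliferative Btg1 was higher at 1.14 ± 0.14. Primed MSC against IUA gave 6 higher and 4 lower of these, with Nab2 higher at 1.20 ± 0.21 and Spry2 and Hes1 lower at -1.06 ± 0.17 and -0.98 ± 0.20, and control MSC gave 1, Gadd45g, lower at -0.75 ± 0.15.

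Of 21 other leucine zipper factors that can pair with or compete against AP-1, 6 were lower and 4 higher in IUA (median 0.04). Jdp2, which represses AP-1, was higher at 1.18 ± 0.17, while Mafk and Cebpd were lower at -1.08 ± 0.16 and -1.20 ± 0.23. In primed MSC against IUA 2 were higher: Cebpb, a factor of myeloid activation, at 1.54 ± 0.36 and Crem at 0.50 ± 0.14. All these counts stand beside 45.0% lower and 11.1% higher among all tested genes in IUA against Sham, and 12.2% and 6.97% in primed MSC against IUA.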

How the data were processed

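The authors deposited FPKM values with 2 decimals for 22294 genes in 12 libraries. The submitters' processing notes list DESeq2, RSEM, StringTie, HISAT2 and fastp, and mm10 as the build, with no versions and no account of how fragments were shared between similar transcripts. FPKM are not counts, so log2(FPKM + 1) was tested with limma 3.58.1 in R 4.3.3. Tested genes reached an FPKM of 1 in 3 or more libraries, and 1 mean per group and a variance trend were fitted to all 12 libraries together. Tests were two-sided, with Benjamini-Hochberg adjustment over 11604 genes and an adjusted p under 0.05 as a call. The fit was tested on simulated data.

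Depth is an estimate: at 15080000 to 23580000 fragments per library, 67.9% to 82.0% of low values of transcripts of 300 to 1000 bases came out within 0.1 of a whole fragment, against a median of 15.4% to 17.3% over other depths. These fragments were not used in a count test. Gene positions, transcript length and GC content came from GENCODE M21 (GRCm38, the same assembly as mm10), and promoters from RefSeq.

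The members and lists were chosen with earlier results of these data known. By a rule, every member is named, with values per library for those called among the IUA groups, the 6 of smallest p in IUA against Sham, and Fos, Jun, Egr1, Hspa1a, Hspa1b and Hsp90aa1. The 3 genes of smallest p are named from each wider list where that list is described. Other settings were lower pseudocounts (0.1, 0.5), a filter at FPKM 5 or none, scaling to TPM, by median ratios or by quantiles, array weights, a fit of the compared groups alone, the replicate number as a block, a lowess correction for GC (span 0.3) with and without the block, an epithelial covariate, the sum of Hspa1a and Hspa1b, and leaving out each library. The GC correction without IUA replicate 3 was added after seeing the data.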

Additional observations from a re-analysis of the deposited data

How the results depend on the processing

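Members called in IUA against Sham numbered 25 as deposited, 16 under GC correction, 15 under GC correction with the replicate block, 14 under GC correction without IUA replicate 3 and 2 with the epithelial covariate, which left 3 in control MSC and 4 in primed MSC against Sham and 13 members differing over the groups. Leaving out 1 library gave 21 to 26 for IUA against Sham, 0 to 1 for control MSC against IUA, 7 to 16 for primed MSC against IUA, 0 to 3 for primed against control MSC, and 27 to 30 differing. The 1 call of control MSC against IUA became 0 without a filter, under median-ratio or quantile scaling, with the compared groups alone, under the replicate block, and under all 3 GC corrections. The 0 of primed against control MSC became 4 with the compared groups alone, array weights, or GC correction without IUA replicate 3. No pairing by replicate number was seen in deviations from the group means over all tested genes. Same-numbered libraries of different groups correlated at -0.29 to 0.29 and others at -0.33 to 0.27, which does not exclude a shared day or batch. The replicate block left 25 calls in IUA against Sham and, beyond the call lost in control MSC against IUA, changed no count by over 1.5 times.

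The AP-1 and EGR median of IUA against Sham, -1.19 as deposited, was -0.80 under median-ratio scaling, -0.69 under GC correction with or without the block, -0.49 under GC correction without IUA replicate 3, -0.59 with the epithelial covariate, and -1.40 to -0.88 without 1 library. Against Sham it was -0.72, -0.69, -0.69 and -0.47 in control MSC under those 4 settings, and in primed MSC -0.26 under median-ratio scaling and -0.32 with the covariate. The heat shock median of IUA against Sham, -0.14, was 0.26, 0.076 and 0.17 under median-ratio scaling, GC correction and GC correction without IUA replicate 3, and -0.37 to -0.13 without 1 library. Against Sham it was 0.028, -0.043, -0.044 and -0.66 in control MSC (median-ratio, GC, GC without IUA replicate 3, covariate) and 0.016, -0.12, -0.13 and -0.67 in primed MSC, where leaving out 1 library gave -0.53 to -0.18. For primed MSC against IUA and against control MSC that range was -0.46 to -0.13 and -0.18 to 0.13, and for control MSC against IUA GC correction without IUA replicate 3 gave -0.49.

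Of the members called as deposited or under the setting concerned, these changed sign. In IUA against Sham, Fos was 0.40 under median-ratio scaling and GC correction and 0.33 under GC correction without IUA replicate 3, Rhob was 0.47 under GC correction, and Klf2, Zfp36 and Hspa1b were 0.018, 0.077 and 0.66 under GC correction without IUA replicate 3. Atf3 was 0.32 under median-ratio scaling in both MSC groups against Sham and 0.28 in control MSC under GC correction without IUA replicate 3. In primed MSC against Sham, Nr4a3 was 0.012 under median-ratio scaling, 0.10 under quantile scaling and 0.040, 0.040 and 0.039 under the 3 GC corrections, and Hsph1 was 0.016 under median-ratio scaling. Over single members, settings that kept all libraries gave the same side of the threshold 2687 times, in 149 of which a member without a call changed sign. A call was lost 173 times, gained 80 times, and lost or gained with a change of sign 12 times. The cause of these changes was not tested, beyond the common shift of -0.35 that median-ratio scaling and GC correction remove. With 3 libraries a group and estimated depth, members at a few FPKM such as Egr3 and Nr4a3 are the least precise.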
